A study of Sus scrofa with 5 samples.

Results

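The cells described here are porcine blastoid cells that carried many transcripts of *MYL7* and *MYL4*, the genes of the atrial regulatory and the embryonic and atrial essential myosin light chains. Cells were barcodes with at least 11223 UMIs (unique molecular identifiers, 1 per captured transcript) in library 1 or 9805 in library 2. A cell was included when its *MYL7* and *MYL4* UMIs summed to at least 20. By this rule 179 of 7369 cells were chosen in library 1, a share of 2.43% (95% exact Clopper-Pearson interval 2.09 to 2.81%). Library 2 gave 93 of 8175 cells, a share of 1.14% (interval 0.919 to 1.39%). Together 272 of 15544 cells are called the *MYL7*/*MYL4* cells below.

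Blastoids are blastocyst-like structures built from stem cells. Here they were grown from porcine embryonic stem cells (pESCs), derived from parthenogenetic blastocysts, by a 3D method in which clusters formed first and were then kept in iBlastoid medium. Day 6 structures with a cavity were picked by hand, dissociated with trypsin and profiled by 10x Genomics droplet scRNA-seq, which gave both libraries, porcine blastoid 1 and porcine blastoid 2. There was 1 condition and no untreated or embryo sample among these libraries, the labels name no difference between them, and nothing says whether they came from separate cultures. All p-values below therefore measure only the spread between these 2 libraries, which may be technical.

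Cardiac muscle cells contract through the sarcomere, in which myosin heavy and light chains pull on actin filaments under the control of the troponins. In the embryo these cells arise from mesoderm, and transcription factors of the NKX2, GATA, TBX, MEF2 and HAND families switch on their genes. *MYL7* and *MYL4* are used as early markers of this lineage and are kept in the atria later. The lineages sought in a blastoid resemble the epiblast (EPI), the trophectoderm (TE) and the hypoblast (HYPO), the last being called HLCs, and heart muscle is not among them.

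Depth was close in both libraries, with 289452283 and 302211552 UMIs in all and 87.8% and 87.7% of them in cells. The *MYL7*/*MYL4* cells held a median of 34357 UMIs and 6717 genes in library 1, against 29640.5 UMIs in its other cells. In library 2 the order was the other way, with medians of 24328 and 27640.5 UMIs. A fixed number of UMIs is reached more easily in a deep cell, and 30 of the 179 cells of library 1 and 6 of the 93 of library 2 were above the 95th percentile of UMIs of their library. The libraries shared 9 cell barcodes. Below the cell minimum, 7 and 14 further barcodes reached 20 UMIs of the pair and were not used. Scrublet's automatic threshold marked only 1 cell in each library, so the cells with the highest scores, 5.89% and 6.54% of all, were taken as likely doublets in an alternative. They included 33 (18.4%) and 15 (16.1%) of the *MYL7*/*MYL4* cells.

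The 2 selecting genes are given as a description, with no test. *MYL7* ranged from 14 to 393 UMIs per chosen cell in library 1 (median 73) and from 13 to 383 in library 2 (median 80). *MYL4* ranged from 0 to 254 UMIs (median 29) and from 0 to 251 (median 14). *MYL7* was therefore present in every chosen cell, while *MYL4* was under 5 UMIs in 63 (35.2%) and 34 (36.6%) of them. Summed over cells and scaled to UMIs per 1000000 UMIs of their class (CPM), *MYL7* stood at 2297 and 3629 CPM in the chosen cells and at 20.1 and 13.2 CPM in all others. *MYL4* stood at 1200 and 1681 CPM against 2.22 and 1.60 CPM. Empty droplets (barcodes with 10 to 100 UMIs) held 94.5 and 72.9 CPM of *MYL7* and 43.3 and 31.6 CPM of *MYL4*. The levels in the other cells are capped by the rule, so nothing is read from them.

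**Figure D1:**
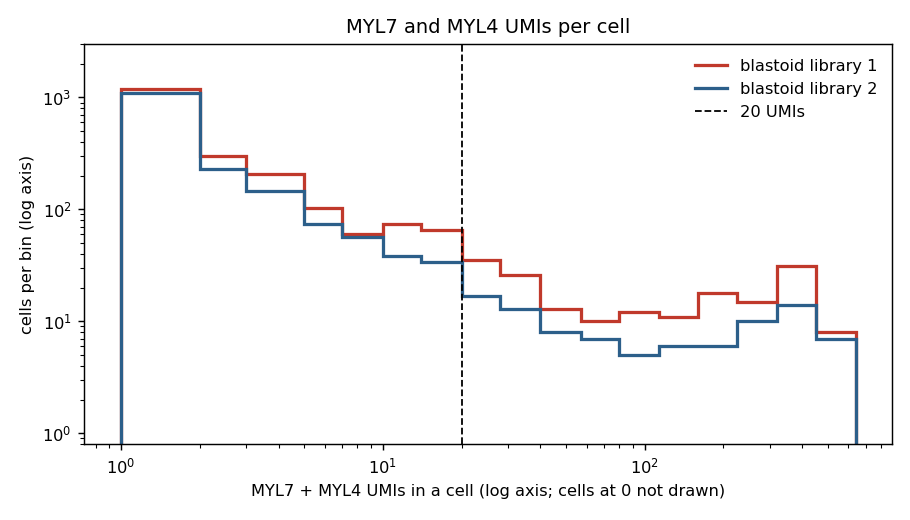
Number of cells (log axis) by their summed MYL7 and MYL4 UMIs (log axis) in library 1 (red) and library 2 (blue), with the dashed line at 20 UMIs. The bins hold 1200 and 1100 cells with 1 UMI, 10 and 7 cells with 57 to 79 UMIs, and 31 and 14 cells with 320 to 452 UMIs.

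The plot of cells by their summed UMIs describes the selecting pair with no test, and no separate group of cells is read from it. In bins of about equal width on the log scale, library 1 had 10 to 12 cells per bin from 57 to 159 UMIs and library 2 had 5 to 7 from 57 to 225 UMIs. The bin from 320 to 452 UMIs held 31 and 14 cells. In all, 62 cells of library 1 and 34 of library 2 held 200 UMIs or more. Cells lay on both sides of the threshold without a gap, with 47 and 28 cells at 15 to 19 UMIs and 22 and 12 cells at 20 to 24 UMIs. Just inside it *TNNT2*, cardiac troponin T, was at 41.3 and 33.3 CPM, and just outside it at 38.6 and 16.5 CPM. *COL3A1*, a fibrillar collagen, was at 538 and 449 CPM just inside and 388 and 317 CPM just outside. The threshold thus cut through a continuous range of cells.

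The sarcomere genes were far higher in the *MYL7*/*MYL4* cells than in all other cells. UMIs were summed per library over the chosen cells and over all others, and the 4 sums were compared with edgeR's quasi-likelihood test after leaving out *MYL7* and *MYL4*. A gene was called at an adjusted p (Benjamini-Hochberg) below 0.05 and at least a 2-fold difference. Of 19983 genes tested, 5.56% were called higher and 3.49% lower. Of the 21 listed sarcomere genes 20 are in the files, and all 20 were called higher, with a median log2 difference of 6.33 against -0.06 over all genes tested. All 20 were also called higher under each of the 14 alternatives tested. Genes near 0 in the other cells, here *MYL2*, *CSRP3* and *MYOZ2*, passed the filter on counts only through the chosen cells. Such genes, in this list and others, could hardly be called lower.

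Among the thin filament genes, *ACTC1*, cardiac alpha actin, stood at 2578 and 2619 CPM in the *MYL7*/*MYL4* cells of libraries 1 and 2 and at 17.4 and 16.02 CPM in the other cells. Both sums of the chosen cells lay far above both sums of the others, a log2 difference of 7.32 ± 0.09 (SE, 2 libraries; edgeR adjusted p = 1.42e-12). *TNNT2*, cardiac troponin T, stood at 559.5 and 749.5 CPM against 1.72 and 0.931 CPM (log2 8.99 ± 0.25, edgeR adjusted p = 3.43e-10). *TNNC1*, the calcium-binding troponin C, stood at 225 and 237 CPM against 1.73 and 1.10 CPM. The inhibitory subunit of troponin was present in both its forms. *TNNI1*, the slow skeletal form used by the fetal heart, stood at 385 and 532 CPM against 2.90 and 2.10 CPM. *TNNI3*, the adult cardiac form, stood at 512 and 689 CPM against 49.5 and 53.9 CPM. Empty droplets held 91.5 and 95.1 CPM of *TNNI3*, above its level in the other cells. The same order held for *ACTC1* (84.8 and 52.9 CPM), *TNNT2* (16.5 and 10.2 CPM) and *TNNI1* (15.25 and 12.37 CPM). What free RNA adds to the levels in the other cells was not tested. *TNNI3* was called higher by a log2 difference of 3.57 and *TNNI1* by 7.55 (edgeR adjusted p = 1.63e-09 and 1.18e-10).

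The thick filament and its anchors moved with them. *TTN*, the giant spring protein titin, stood at 483 and 499 CPM against 1.41 and 0.870 CPM (log2 8.80 ± 0.18, edgeR adjusted p = 4.23e-11). *MYBPC3*, cardiac myosin binding protein C, stood at 121 and 159.7 CPM against 0.330 and 0.137 CPM (log2 9.26 ± 0.23, edgeR adjusted p = 1.36e-10). Summed over all other cells these 2 genes were nearly absent, but not in the cells just outside the threshold. With 10 to 19 UMIs of the pair *TTN* was at 11.4 and 4.54 CPM and *MYBPC3* at 3.13 and 0.454 CPM. In chosen cells with 20 to 49 UMIs *TTN* was at 12.7 and 30.9 CPM and *MYBPC3* at 7.80 and 12.8 CPM. *MYOM1*, a protein of the M line, and *LDB3* and *ACTN2*, proteins of the Z disc, differed by 6.36, 7.45 and 4.76 on the log2 scale, and *CSRP3*, a Z disc protein that senses stretch, by 9.57. The smallest differences of the list were those of *TPM1*, tropomyosin, at 1.86, and *NEBL*, nebulette, at 2.66, both of which the other cells held at 725 to 813 and 37.6 to 38.6 CPM.

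Of the myosin heavy chains, *MYH7*, the beta chain of slow and ventricular muscle, stood at 40.1 and 49.3 CPM against 0.635 and 0.630 CPM (log2 6.15 ± 0.14, edgeR adjusted p = 8.07e-11). No gene in the files has the symbol *MYH6*, the alpha chain of the atria. LOC100736765, which the annotation names myosin-6, was looked up after its values were seen. It lies at chr7:75677666-75704486 on the plus strand of Sscrofa11.1, beside *MYH7* at chr7:75650841-75672908. Its level was 385 and 414 CPM in the chosen cells against 3.03 and 2.82 CPM (log2 7.13 ± 0.09, edgeR adjusted p = 1.42e-12). Whether reads of these related heavy chain genes were split between them was not tested, and their separate levels are uncertain. Both were found in 68 and 25 chosen cells, LOC100736765 alone in 62 and 34, and *MYH7* alone in 1 and 1.

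Among the light chains that the rule did not use, *MYL3*, the ventricular and slow skeletal essential chain, stood at 250.2 and 450.4 CPM against 4.30 and 4.69 CPM (log2 6.29 ± 0.22, edgeR adjusted p = 2.82e-09). *MYL2*, the ventricular regulatory chain, stood at 21.9 and 65.5 CPM against 0.0326 and 0.0305 CPM (log2 10.29 ± 0.53, edgeR adjusted p = 7.74e-08). It came from few cells, 32 (17.9%) and 19 (20.4%), and the highest 3 cells held 53.8% and 44.3% of its UMIs. Of 8 light chain genes tested, 5 were called higher, the others being *MYL1*, *MYL6* and *MYL9*, and none lower by edgeR or DESeq2, with 1 lower at an unadjusted p below 0.05. The fast skeletal chain *MYLPF* was at 6.18 and 1.01 CPM against 7.08 and 8.10 CPM and was not called.

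**Figure D2:**
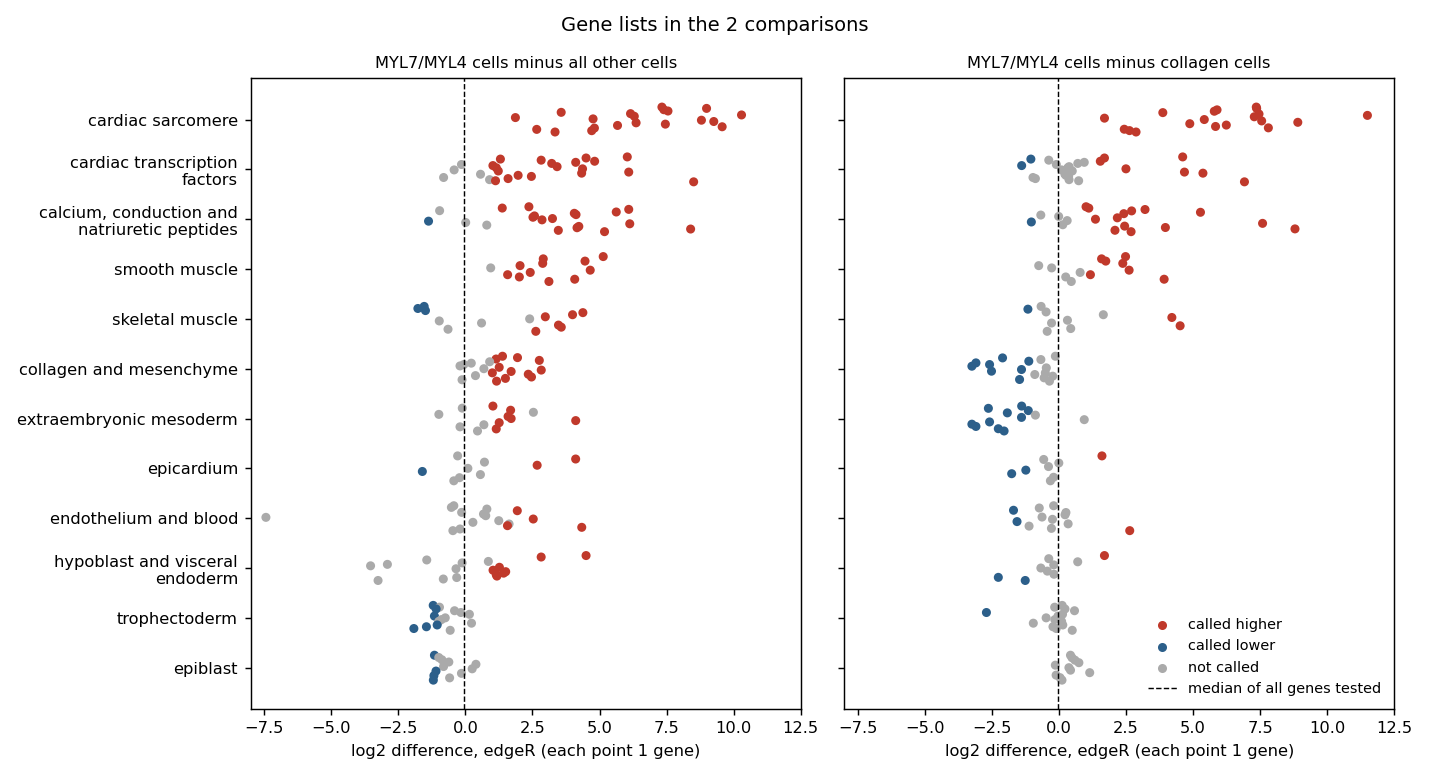
Log2 difference from edgeR for each listed gene (1 point), in rows by gene list, for the MYL7/MYL4 cells minus all other cells (left) and minus collagen cells without cardiac myosin (right). Red points were called higher, blue points lower and grey points not called, and the dashed line marks the median of all genes tested; all 20 sarcomere genes on the left and all 19 on the right are red.

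The promoters of sarcomere genes were read from the genome, since the genes rose together. The 250 bases before the annotated start of each gene were taken from RefSeq Sscrofa11.1, and all 20 listed genes in the files had such a window among 19531 protein-coding genes. Motifs were searched on both strands: the CArG box bound by SRF, the MEF2 site, AGATAA for GATA factors, CATTCC for TEAD factors, TNAAGTG for NKX2-5, and TATAAA, which can overlap a MEF2 site. A MEF2 site was in 5 of 20 windows (*TTN*, *MYBPC3*, *MYOM1*, *MYOZ2* and *SMPX*) and in 1.53% of all windows. A CArG box was in 2 (10.0%; *MYL3* and *LDB3*) and in 1.31% of all. AGATAA and CATTCC were in 3 each (15.0%), against 8.08% and 10.3% of all, and TNAAGTG in 2 (10.0%) against 8.09%. TATAAA was in 1 (5.00%) against 9.76%. Of 19 collagen and mesenchyme windows none held a MEF2 site or a CArG box. Of 12 smooth muscle windows none held a MEF2 site and 2 (16.7%; *TAGLN* and *MYL9*) a CArG box, a higher share than in the sarcomere windows. The annotated start need not be the one these cells used, and a match is not a bound site. The windows of *MYBPC3*, *TTN* and *MYL3* are shown because they hold such matches and belong to genes called above, with the MEF2 site or CArG box in capitals, 5′ to 3′ on the strand of the gene. They lie at chr2:15247429-15247678 (plus strand), chr15:84501321-84501570 (minus strand) and chr13:29735617-29735866 (minus strand).
MYBPC3: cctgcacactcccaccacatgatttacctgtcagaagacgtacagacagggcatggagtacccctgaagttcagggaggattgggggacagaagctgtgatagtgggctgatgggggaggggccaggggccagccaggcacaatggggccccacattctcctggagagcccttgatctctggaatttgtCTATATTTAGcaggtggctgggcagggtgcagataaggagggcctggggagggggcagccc
TTN: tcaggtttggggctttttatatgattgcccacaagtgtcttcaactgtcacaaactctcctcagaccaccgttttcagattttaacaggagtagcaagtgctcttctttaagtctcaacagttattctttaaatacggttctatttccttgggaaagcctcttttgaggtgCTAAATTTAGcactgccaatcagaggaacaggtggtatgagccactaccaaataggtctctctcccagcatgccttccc
MYL3: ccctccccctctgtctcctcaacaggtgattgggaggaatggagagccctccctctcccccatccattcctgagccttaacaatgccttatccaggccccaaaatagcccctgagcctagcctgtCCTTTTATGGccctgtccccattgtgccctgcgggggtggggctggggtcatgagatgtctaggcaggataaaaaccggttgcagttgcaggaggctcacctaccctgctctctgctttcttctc
The MEF2 sites begin 61 bases before the start of *MYBPC3* and 79 before that of *TTN*, and the CArG box 125 bases before that of *MYL3*. *MYBPC3* also holds AGATAA 31 bases before its start.

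The transcription factors of heart development were also higher, most of them by less than the sarcomere genes. Of 24 factors tested 19 were called higher and none lower, with a median log2 difference of 2.21. DESeq2 called the same numbers, and 2 factors were lower at an unadjusted p below 0.05. *NKX2-5*, a homeobox factor of the heart field, stood at 249.8 and 268.1 CPM against 4.83 and 3.31 CPM, with no overlap of the groups (log2 6.03 ± 0.16, edgeR adjusted p = 1.96e-10). *MYOCD*, the coactivator of SRF, stood at 77.7 and 75.3 CPM against 1.39 and 0.947 CPM (log2 6.09 ± 0.16, edgeR adjusted p = 1.54e-10). *SMYD1*, a muscle methyltransferase needed for the heart, stood at 91.8 and 103 CPM against 0.326 and 0.221 CPM (log2 8.51 ± 0.14, edgeR adjusted p = 1.04e-11). *TBX5* and *TBX20*, T-box factors of the heart tube, differed by 4.82 and 4.11, *GATA4* by 4.50, *MEF2C* by 4.37 and *HAND2* by 3.42 on the log2 scale.

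Other factors differed less. *HAND1* was called higher by a log2 difference of only 1.03 ± 0.15 (edgeR adjusted p = 0.000332), at 222 and 202 CPM against 129 and 87.0 CPM. The call was lost with at least 50 UMIs of the pair (log2 0.46, edgeR adjusted p = 0.144), with at least 10 of each gene (log2 0.39, adjusted p = 0.31) and, by the 2-fold limit, without the chosen cells of library 1 (log2 0.93) or with library size as the only scaling (log2 0.99). *GATA5* was called at a log2 difference of 1.31. It lost its call with at least 50 UMIs of the pair (log2 0.55, edgeR adjusted p = 0.256), with at least 10 of each gene (log2 0.02, adjusted p = 0.977) and without library 1, where the fold was about as large (log2 1.25, adjusted p = 0.0535). In the chosen cells with 200 UMIs or more it was at 3.25 and 5.21 CPM, against 2.74 and 2.25 CPM in cells with none of the pair. *ISL1*, a factor of heart progenitors that is switched off in muscle cells, stood at 38.8 and 34.1 CPM against 58.2 and 44.7 CPM and was not called. *TBX3*, *HEY1*, *NR2F2* and *SHOX2*, the last a factor of the sinus node at 0.238 and 3.04 CPM, were not called either. Early mesoderm genes were at few CPM, though their sum, 55.65 and 49.29 CPM, was above the 27.67 and 25.32 CPM of all other cells. *T* (brachyury) and *MSGN1* had no UMI in any chosen cell, but *MSGN1* had none in any other cell either and *T* was in 0.139% and 0.099% of them. *MESP1*, a factor of the first heart mesoderm, was at 9.28 and 8.10 CPM and not called, and *EOMES* and *PDGFRA* were called higher of 8 tested, *PDGFRA* not without library 1 (log2 0.94) and neither with at least 10 UMIs of each selecting gene. That count ran from 0 to 4 under the alternatives, and 5.56% of all genes tested were called higher.

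Genes of calcium handling, conduction and the natriuretic peptides were called higher in 16 of 20, and 1 was lower, with a median log2 difference of 3.35. Of these *GJA5*, *BMP10* and *NPPA* passed the filter on counts only through the chosen cells and could hardly be called lower. *SLC8A1*, the sodium-calcium exchanger, stood at 914 and 879.5 CPM against 22.7 and 14.9 CPM (log2 5.62 ± 0.17, edgeR adjusted p = 9.4e-10). *RYR2*, the calcium release channel, stood at 362 and 333 CPM against 71.6 and 67.7 CPM (log2 2.37 ± 0.08, edgeR adjusted p = 2.19e-09). *PLN*, phospholamban, which restrains the calcium pump, stood at 101 and 120.2 CPM, above all other cells by a log2 difference of 6.09 ± 0.12 (edgeR adjusted p = 2.06e-11). The pump gene *ATP2A2* stood at 234.5 and 226.5 CPM against 93.1 and 90.8 CPM (log2 1.37). *HCN4*, the pacemaker channel, was at 8.80 and 11.5 CPM against 1.05 and 1.07 CPM and was called higher. *KCNJ3*, a channel subunit of the atria, was the gene called lower, at 39.7 and 39.2 CPM against 107.5 and 104 CPM (log2 -1.37 ± 0.09, edgeR adjusted p = 4.22e-07).

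The natriuretic peptide genes came from few cells. *NPPA*, which marks working chamber muscle, had 502 UMIs in 34 chosen cells (18.99%) of library 1 and 35 UMIs in 8 cells (8.60%) of library 2. The highest 3 cells held 300 of the 502 and 28 of the 35. Its level was 59.7 and 11.8 CPM against 0.183 and 0.0725 CPM, and the call (log2 8.39 ± 0.56, edgeR adjusted p = 7.21e-07) thus rests on a few cells in each library. *NPPB* was found in 82 (45.8%) and 21 (22.6%) of the chosen cells, and the highest 3 cells held 127 of its 672 UMIs in library 1 and 47 of its 84 in library 2.

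Smooth and skeletal muscle genes were read as markers of other muscle types. Of 12 smooth muscle genes 11 were called higher, with a median log2 difference of 2.89. *ACTA2*, alpha smooth muscle actin, stood at 1394 and 1623 CPM against 53.1 and 35.2 CPM (log2 5.14 ± 0.17, edgeR adjusted p = 1.72e-09), and *TAGLN*, transgelin, at 1255 and 1423 CPM against 213.5 and 155.0 CPM. Both are also made by early heart muscle. *MYH11*, the smooth muscle heavy chain and the defining gene of that type, was called higher at 5.71 and 3.71 CPM against 0.826 and 0.592 CPM (log2 2.88 ± 0.33, edgeR adjusted p = 6.29e-05). The skeletal list had 6 of 13 genes higher and 3 lower, and *MYOD1*, *MYF5* and *MYOG*, the factors that define skeletal muscle, had no UMI in any chosen cell. *MYOD1* and *MYOG* had none in any other cell either, and *MYF5* was in 0.0495% of the other cells of library 2 only, so these zeros do not set the chosen cells apart. *ACTA1*, skeletal alpha actin, which fetal heart muscle shares, held most UMIs of that list, at 306 and 304 CPM against 22.6 and 16.9 CPM. Without the chosen cells of library 1, 3 skeletal genes were called higher in place of 6, *MYMK*, *MYH1* and *MYL1* being lost with log2 differences of 4.21, 2.58 and 2.54 in place of 4.38, 2.98 and 2.62. None of the 3 lower calls (*MYF6*, *PAX3* and *PAX7*) held (edgeR adjusted p = 0.645, 0.0605 and 0.304), with log2 differences of -0.50, -1.55 and -0.72 in place of -1.54, -1.77 and -1.49.

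The chosen cells were not alike. Inside the range they were split at 50 and 200 UMIs of the selecting pair, which gave 69, 48 and 62 cells in library 1 and 36, 23 and 34 in library 2. The bins are described with no test, since the selecting genes define them. *ACTC1* stood at 124, 1494 and 7121 CPM in these bins in library 1 and at 229, 1278 and 6867 CPM in library 2. *TTN* stood at 12.7, 335 and 1293 CPM in library 1 and at 30.9, 267 and 1311 CPM in library 2. *NKX2-5* stood at 41.3, 219 and 574 CPM in library 1 and at 55.7, 216.5 and 598 CPM in library 2. All 3 genes had the same order of bins in both libraries. In cells with 10 to 19 UMIs, which lay outside, *ACTC1* was at 59.8 and 67.2 CPM and *NKX2-5* at 25.2 and 23.6 CPM.

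**Figure D3:**
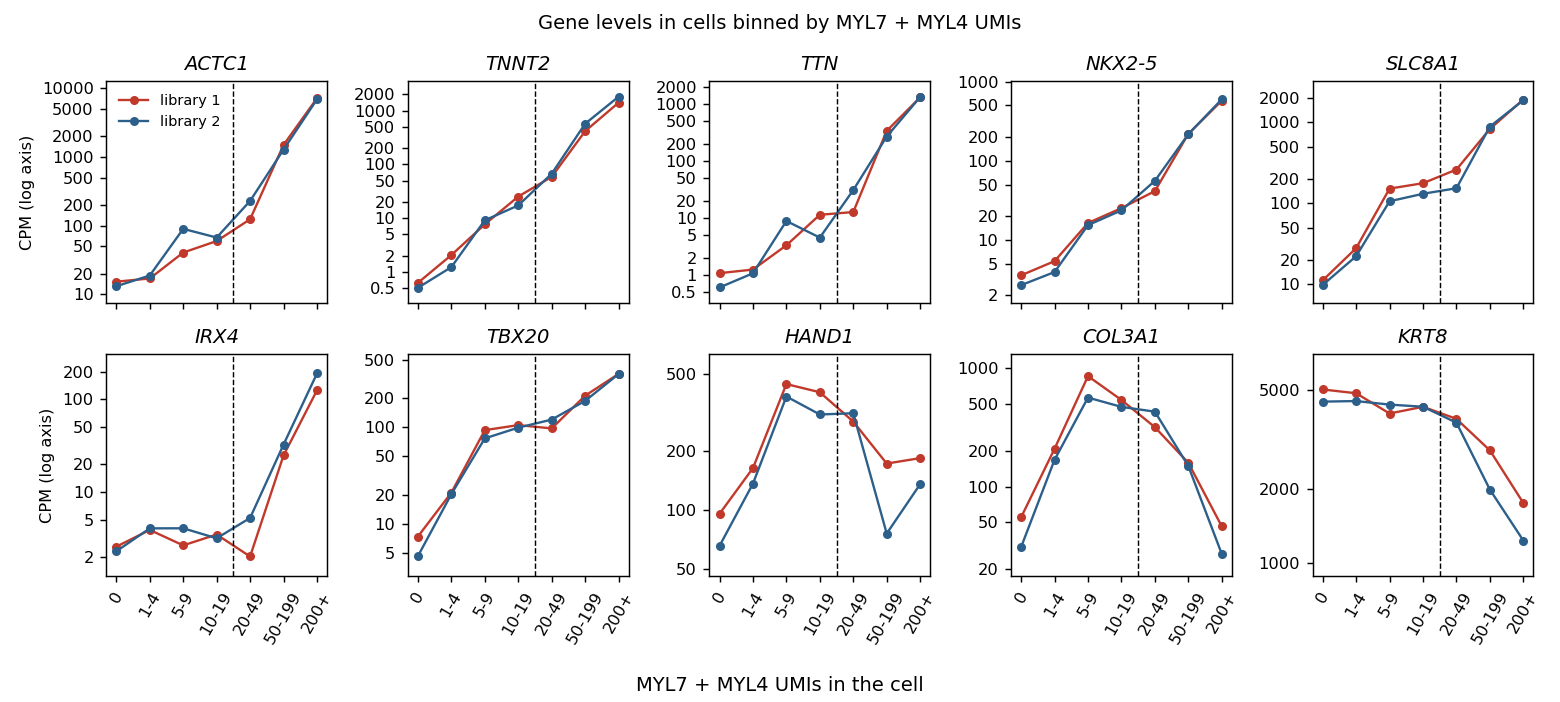
CPM (log axes that differ between panels) of 10 genes in cells binned by their MYL7 and MYL4 UMIs, in library 1 (red) and library 2 (blue), with the dashed line at the threshold of 20. ACTC1 reached 7121 and 6867 CPM in the highest bin, while COL3A1 peaked in cells with 5 to 9 UMIs at 859.7 and 566.5 CPM and stood at 46.3 and 27.1 CPM in the highest.

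Fibrillar collagen genes had other courses. *COL3A1* peaked below the threshold and was at 55.1 and 30.9 CPM in cells with no UMI of the pair, at 859.7 and 566.5 CPM with 5 to 9 UMIs, and inside the chosen range at 319, 159 and 46.3 CPM in library 1 and 431, 149.8 and 27.1 CPM in library 2. *COL1A1* was highest at 5 to 9 UMIs in library 1 (274 CPM) but at 20 to 49 UMIs in library 2 (225.9 CPM). *COL5A1* was highest in the top bin of both libraries, at 114 and 114 CPM against 60.5 and 55.9 CPM with 5 to 9 UMIs. *HAND1* had its peak with 5 to 9 UMIs at 442 and 382 CPM. *DCN*, decorin, a proteoglycan of connective tissue, was at 59.8 and 78.3 CPM in the lowest chosen bin and at 1.22 and 1.04 CPM in the highest. The epithelial keratin *KRT8* stood at 3836, 2860 and 1751 CPM across the chosen bins of library 1 and at 3702, 1984 and 1234 CPM in library 2. *GATA4* was already at 74.5 and 72.4 CPM in cells with 5 to 9 UMIs, against 2.27 and 1.25 CPM in cells with none of the pair. *IRX4*, a gene of the ventricle, had another course and stood at 2.02 and 5.27 CPM in the lowest chosen bin and at 125.5 and 190.7 CPM in the highest.

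Per cell, the UMIs of 17 sarcomere genes (the list without *TPM1*, *TNNI3* and *NEBL*, the 3 genes found in the largest shares of other cells) had a median of 126 in the chosen cells of library 1 and 62 in library 2, against 1 and 1 in the others. It ran from 1 to 1206 among the chosen cells of library 1 and from 0 to 968 in library 2. At least 10 such UMIs were found in 150 (83.8%) and 77 (82.8%) of the chosen cells and in 335 (4.66%) and 194 (2.40%) of the others. At least 50 were found in 108 and 56 of the chosen cells and in 9 and 8 of the others. *ACTC1* alone ranged from 0 to 745 UMIs per chosen cell in library 1 (median 33) and from 0 to 495 in library 2 (median 27), and *TNNT2* from 0 to 127 (median 17) and from 0 to 102 (median 13). A *TNNT2* UMI was found in 82.1% and 81.7% of the chosen cells and in 3.31% and 2.24% of the others, and after thinning each cell to 9805 UMIs in 67.0% and 75.3% against 1.38% and 0.916%. In both libraries some chosen cells had no *ACTC1* UMI and some no *TNNT2* UMI. Deep cells hold more UMIs of all genes. The medians of total UMIs by bin ran from 32757 to 35996 in library 1 and from 22200.5 to 26557.5 in library 2. These medians hide deep cells. The deepest cell held 153366, 195382 and 106121 UMIs across the chosen bins of library 1 and 135997, 72952 and 70496 in library 2. In such cells of the lowest bin the pair was a small share of all UMIs.

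**Figure D4:**
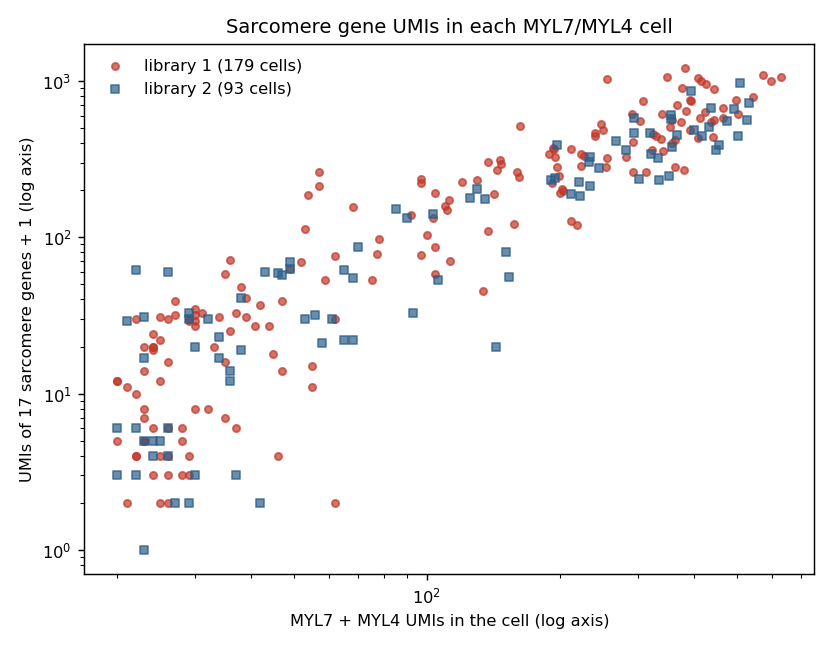
UMIs of 17 sarcomere genes plus 1 (log axis) against MYL7 and MYL4 UMIs (log axis) in each of the 179 chosen cells of library 1 (red circles) and 93 of library 2 (blue squares). Cells with under 50 UMIs of the pair spread from 0 to 71 sarcomere UMIs, and cells with 200 or more held at least 118.

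The cells with most of the pair had mostly chosen cells as nearest neighbours when the pair was left out. Distances were taken on 30 principal components of 2000 variable genes without *MYL7* and *MYL4*, with 30 neighbours per cell. Of the neighbours of cells with 200 UMIs or more, 88.9% and 79.7% were other chosen cells. For cells from 50 to under 200 UMIs it was 47.9% and 31.7%, and for cells with 20 to 49 UMIs 15.3% and 8.06%. Over all other cells 0.926% and 0.427% of neighbours were chosen cells. In the lowest chosen bin 27.7% and 29.5% of neighbours were collagen cells, defined in the next comparison. That share was 5.995% and 4.192% over all other cells, and 34.45% and 35.51% for cells with 10 to 19 UMIs outside the rule. The label cardiac-like was checked against the sarcomere genes. Summed over the same 17 genes, cells with 50 to under 200 UMIs held 3391 and 3590.0 CPM and cells with 200 or more 14040.0 and 15600.0 CPM. The lowest chosen bin, 69 and 36 cells, held 361 and 579.8 CPM, against 227 and 189.8 CPM in the cells with 10 to 19 UMIs outside the rule and 59.4 and 42.1 CPM in cells with none of the pair. Over all 20 genes, *TPM1* included, the lowest bin held 1398 and 2013 CPM and the cells with 10 to 19 UMIs 1382 and 1715 CPM. The lowest bin thus lay nearer to the cells just outside than to the other chosen bins.

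Genes that mark parts of the heart were counted alone and together per cell. The overlap that unrelated genes would show was not worked out, so no mixed chamber type is read from these counts. *IRX4*, a ventricular factor, was found in 75 (41.9%) and 38 (40.9%) of the chosen cells, and *TBX5*, which is strongest in the atria and left ventricle, in 126 (70.4%) and 56 (60.2%). Both were found in 65 and 30 cells, and *IRX4* without *TBX5* in 10 and 8. Of the cells with *MYL2*, 30 of 32 and 18 of 19 also had *IRX4*. *MYL2* and *NPPA* were found together in 12 and 2 cells. Missed transcripts lower such counts, while free RNA and doublets raise them, and their part was not tested. As single genes, *TBX5* was found in 4.41% and 2.61% of all other cells, *IRX4* in 7.79% and 6.76%, *MYL2* in 0.111% and 0.0990% and *NPPA* in 0.459% and 0.186%. Thinned to 9805 UMIs per cell, *IRX4* was found in 25.7% and 27.96% of the chosen cells, in 2.88% and 2.80% of the other cells and in 0.851% and 0.815% of collagen cells.

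The *MYL7*/*MYL4* cells were next set against collagen cells, taken as cells with at least 20 UMIs of *COL1A1*, *COL1A2* and *COL3A1* in sum and at most 4 of the selecting pair, 470 in library 1 and 368 in library 2. The comparison asked what sets the *MYL7*/*MYL4* cells apart from cells rich in these collagen transcripts. Of the chosen cells, 61 (34.1%) and 19 (20.4%) reached 20 collagen UMIs as well. The 5 genes used for either class were left out of the fit. Of 14518 genes tested 2.82% were called higher in the *MYL7*/*MYL4* cells and 2.83% lower. All 19 sarcomere genes tested were called higher, with a median log2 difference of 5.90 against -0.01 over all genes. Genes near 0 in collagen cells, such as *MYBPC3* (0.261 and 0.309 CPM), passed the filter on counts only through the chosen cells. Such genes, in this list and others, could hardly be called lower, and *MYOZ2* was not tested.

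Part of the heart factors were called between the 2 classes and part were not, which does not show the latter to be equal. At an unadjusted p below 0.05, 14 of 24 were higher and 5 lower. Called higher were 7 of 24, *NKX2-5*, *GATA4*, *TBX5*, *MEF2C*, *MYOCD*, *IRX4* and *SMYD1*, and 2 were called lower, *GATA5* and *HAND1*. The *GATA5* call was lost with at least 10 UMIs of the pair (log2 -0.52) and with the rule of 1 in 1000 UMIs (log2 -0.73). Without the highest Scrublet scores or without cells above the 95th percentile of UMIs it was under the 2-fold limit (log2 -0.99 and -0.92). *NKX2-5* was at 10.2 and 11.3 CPM in the collagen cells (log2 4.62 ± 0.11, edgeR adjusted p = 1.89e-10), and *IRX4* at 1.43 and 1.23 CPM (log2 5.37 ± 0.27, edgeR adjusted p = 1e-07). *TBX20* was at 208 and 213 CPM in the *MYL7*/*MYL4* cells and at 100.2 and 122 CPM in collagen cells, under the 2-fold limit (log2 0.95 ± 0.10, edgeR adjusted p = 6.05e-05). *GATA6* was at 118 and 110.4 CPM against 143 and 161 CPM, and *HAND2* at 54.3 and 67.9 CPM against 43.1 and 50.3 CPM, neither called. *HAND1*, which also marks extraembryonic mesoderm, was lower, at 222 and 202 CPM against 551 and 579 CPM (log2 -1.38 ± 0.08, edgeR adjusted p = 4.23e-07).

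**Figure D5:**
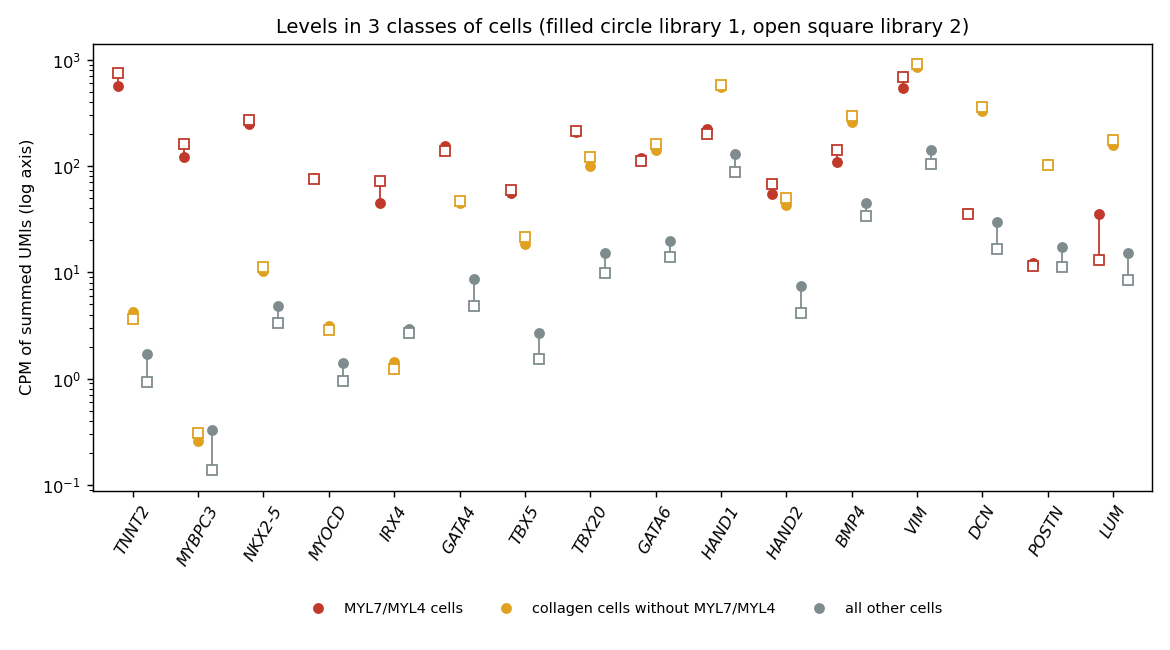
CPM of summed UMIs (log axis) of 16 genes in the MYL7/MYL4 cells (red), the collagen cells without cardiac myosin (yellow) and all other cells (grey), with library 1 as a filled circle, library 2 as an open square and a line joining them. NKX2-5 stood at 249.8 and 268.1 CPM in the MYL7/MYL4 cells and at 10.2 and 11.3 CPM in the collagen cells, and DCN at 36.3 and 35.5 CPM against 330.0 and 362 CPM.

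The calcium and conduction list had 14 of 19 genes higher and 1 lower. *SLC8A1* was already at 137.5 and 141 CPM in collagen cells (log2 2.71 ± 0.07, edgeR adjusted p = 8.58e-10). *GJA1*, the connexin 43 gene, was the one called lower, at 44.2 and 58.1 CPM against 91.2 and 114 CPM (log2 -1.02). With the library as a block, and without the chosen cells of library 1, it was under the 2-fold limit (log2 -0.99 and -0.80). *GJA5*, the connexin 40 gene of the atria and conduction system, had 16 and 12 UMIs in the *MYL7*/*MYL4* cells and none in collagen cells, which makes it at least 20.6-fold higher against a floor of 3 counts over the collagen cells. *MYL2*, with 184 and 194 UMIs against none, was at least 278-fold higher by the same floor. Smooth muscle genes were called higher in 7 of 12, with *ACTA2* at 255 and 291.5 CPM in collagen cells.

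Matrix genes went the other way. By edgeR none of 16 collagen and mesenchyme genes was called higher, also none by DESeq2 or at an unadjusted p below 0.05, and 8 were lower, and of 12 extraembryonic mesoderm genes 10 were lower, the lists sharing *LUM*, *DCN*, *POSTN* and *SNAI2*. The collagen cells were chosen by collagen genes, so lower matrix genes in the other class are in part what that choice sets. *DCN* stood at 36.3 and 35.5 CPM against 330.0 and 362 CPM (log2 -3.24 ± 0.10, edgeR adjusted p = 1.95e-09). *POSTN*, periostin, stood at 12.1 and 11.5 CPM against 105 and 101 CPM, and *LUM*, lumican, at 35.0 and 13.2 CPM against 158 and 175 CPM. *CST3*, a secreted protease inhibitor, differed by -2.36 ± 0.10, and *BMP4*, a ligand made by extraembryonic mesoderm, by -1.14 ± 0.11 (edgeR adjusted p = 2.16e-08 and 3.85e-05). Without the chosen cells of library 1 *BMP4* was under the 2-fold limit (log2 -0.94). *VIM*, *TWIST1* and *SPARC*, mesenchymal genes, were within 2-fold, *VIM* at 541 and 685 CPM against 849 and 904 CPM. *DCN*, *POSTN*, *LUM* and *CST3* were among the 15 genes with the largest fall. The others were *PRRX1*, a mesenchymal homeobox factor, *NID2*, a basement membrane protein, *COL5A2*, a collagen, *SLIT2*, a guidance ligand, and *PTX3*, *TAC3*, *ADAMTS12*, *DSE*, *MAB21L2*, *RFTN1* and *TGFBI*, with log2 differences from -2.51 to -1.77.

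Against all other cells, genes of the same lists were called in the other direction. Collagen and mesenchyme genes were called higher in 12 of 19 and extraembryonic mesoderm genes in 7 of 13. Those counts depended on which cells were chosen. With at least 10 UMIs of each selecting gene 6 collagen and mesenchyme genes were called higher and 1 lower, and with at least 50 UMIs of the pair 2 extraembryonic mesoderm genes. *COL1A1* and *COL3A1* were below all other cells, uncalled, with at least 50 UMIs of the pair (log2 -0.48 and -0.11), where they had been called higher (log2 1.38 and 1.14). *LUM* and *SNAI2* lost their call without the chosen cells of library 1 (log2 0.17 and 0.81), and *NID2* without those of library 2 (log2 0.98).

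The HYPO markers by which the study assigned HLCs, *GATA4* and *GATA6*, were both high in the *MYL7*/*MYL4* cells. *GATA4* stood at 155 and 138 CPM against 8.72 and 4.82 CPM in the other cells, and *GATA6* at 118 and 110.4 CPM against 19.7 and 13.96 CPM (edgeR adjusted p = 5.95e-08 and 6.86e-08). The collagen cells held 45.3 and 47.1 CPM of *GATA4* and 143 and 161 CPM of *GATA6*. Of the hypoblast and visceral endoderm list 8 of 18 genes were called higher by edgeR and by DESeq2, also *COL4A1*, *COL4A2*, *NID2*, *LAMA1*, *CUBN* and *PDGFRA*. The endoderm factors *SOX17* and *FOXA2* and the apolipoprotein gene *APOB* had no UMI in any chosen cell, and *AFP*, *TTR*, *HNF4A* and *TF* had at most 2 UMIs in either library. In cells with none of the pair *SOX17* was at 0.443 and 0.322, *FOXA2* at 0.0944 and 0.0396 and *APOB* at 0.0354 and 0.119 CPM. These zeros thus do little to set the chosen cells apart. *APOA1*, another apolipoprotein gene of the list, was not called. It stood at 109 to 179 and 133 to 253 CPM across the chosen bins, against 187 and 184.5 CPM with none of the pair. No gene of the list was called lower by either tool, with 1 lower at an unadjusted p below 0.05. The count of 8 was 4 with at least 10 UMIs of each selecting gene. *CUBN*, *LAMA1* and *PDGFRA* lost their call without the chosen cells of library 1, *NID2* without those of library 2, and *LAMA1* also with the library as a block (log2 0.99, under the 2-fold limit).

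TE and EPI genes were lower in part. Of 15 trophectoderm genes 6 were called lower and none higher by edgeR and by DESeq2, with 1 higher at an unadjusted p below 0.05. The lower ones included *GATA2* at 28.3 and 23.3 CPM against 65.1 and 61.7 CPM, *TFAP2A* and *CLDN4*. *CLDN4* was under the 2-fold limit without the chosen cells of library 2 (log2 -0.90). The count of 6 ran from 1 to 11 under the alternatives. *KRT8* stood at 2937 and 2511 CPM against 4959 and 4506 CPM, and empty droplets held 6727 and 5932 CPM of it, whose part in this level was not tested. *KRT8* UMIs were found in every chosen cell. Of 12 epiblast genes 4 were called lower, *POU5F1*, *UTF1*, *LIN28A* and *OTX2*, and none higher, which DESeq2 gave as well, with 1 higher at an unadjusted p below 0.05. *UTF1* was under the 2-fold limit without library 2 (log2 -0.96). *POU5F1* stood at 37.0 and 31.1 CPM against 64.2 and 96.6 CPM (log2 -1.15 ± 0.19, edgeR adjusted p = 0.000781). Against collagen cells no epiblast gene was called, 0 of 11, and of 15 trophectoderm genes only *CDX2* was called lower. At an unadjusted p below 0.05 5 of those 11 epiblast genes passed, all 5 higher, and DESeq2 called 0.

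Among signalling genes, BMP and WNT genes were called higher than in all other cells in part. Of 26 BMP genes 10 were called higher and 1 lower, and of 28 WNT genes 11 and 1, against 5.56% higher and 3.49% lower of all genes tested. Without the chosen cells of library 1 the count of BMP genes called higher was 6. With at least 10 UMIs of each selecting gene the count of WNT genes called higher was 7, and that of WNT genes called lower ran from 0 to 3 under the alternatives. *BMP2*, a ligand made next to and within the early heart, stood at 31.5 and 43.6 CPM against 3.25 and 3.57 CPM in other cells and 3.78 and 5.66 CPM in collagen cells, called higher against both (log2 3.45 ± 0.15 and 3.01 ± 0.22, edgeR adjusted p = 1.61e-08 and 2.49e-06). *BMP10*, a ligand of the trabeculated heart wall, had only 16 and 5 UMIs and was called higher in both comparisons, but not by DESeq2 against collagen cells. The antagonist *NOG* was at 10.2 and 7.43 CPM against 1.78 and 1.86 CPM, and was called higher. *WNT2* and *WNT11*, ligands of the heart field, were higher than in other cells (log2 3.69 and 3.28) and were not called against collagen cells. *WNT5B* was called higher against both, and *NKD1*, a WNT target that dampens the pathway, was higher than in other cells and lower than in collagen cells (log2 1.78 and -1.61). The rise of *NKD1* over other cells was lost with at least 50 UMIs of the pair (log2 0.21, edgeR adjusted p = 0.739) and with at least 10 of each selecting gene (log2 -0.15, edgeR adjusted p = 0.826).

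Of the 25 genes with the largest rise against all other cells (symbol known, at least 50 CPM in both libraries), 15 were on the 3 cardiac lists. The remaining ones included *HSPB7*, a small heat shock protein of heart muscle and the first of the 25, at 278.5 and 359.6 CPM against 0.590 and 0.386 CPM (log2 9.38 ± 0.18, edgeR adjusted p = 2.06e-11). *TRIM55*, a ubiquitin ligase of the sarcomere, *SYNPO2L*, a Z disc protein, *ANKRD1*, which binds titin, and *CTNNA3*, the alpha catenin of heart cell junctions, differed by 7.16, 6.84, 5.54 and 5.14. *FILIP1*, *PGM5* and *CCDC141* differed by 5.42, 5.37 and 5.18. *KCNH7*, a potassium channel gene, stood at 326 and 216 CPM against 8.25 and 5.41 CPM. *GYG1*, glycogenin, which primes glycogen, was among the 25 with the largest rise against collagen cells, at 324 and 402 CPM against 38.5 and 48.3 CPM. *MYLK*, the kinase of smooth muscle myosin light chains, *FILIP1* and *RGS6* were also among those 25, with log2 differences of 3.92, 3.19 and 3.13. The 15 genes with the largest fall against all other cells included *GRHL2*, an epithelial factor, at 128 and 111 CPM against 324 and 301 CPM, and *MAP2*, *LRRC7*, *HS3ST4* and *RORB*, with log2 differences from -1.56 to -1.38. None of these 5 was called against collagen cells. The rest of the 15 were *SGIP1*, *NETO1*, *GALNT3*, *KCNJ3*, *ZNF385D*, *TEC*, *KIRREL3*, *MAP7*, *KLHL13* and *RBM47*, with log2 differences from -1.57 to -1.31.

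No listed gene of the cell cycle was called. Of 15 S phase genes and 15 G2 and M phase genes, edgeR called 0 and 0 against all other cells and 0 and 0 against collagen cells, as did DESeq2. At an unadjusted p below 0.05, 6 S phase genes (4 higher, 2 lower) and 5 G2 and M phase genes (4 higher, 1 lower) passed against all other cells. The median log2 differences were -0.06 and 0.11.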

How the data were processed

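3D cultures of pESCs in iBlastoid medium gave day 6 blastoids, and 2 droplet scRNA-seq libraries were analysed. The authors deposited unfiltered UMI count matrices, made with Cell Ranger 7.1.0 against susScr11, with empty droplets included. Per the submitters' notes Seurat 4.3.0 was also used. The bulk pESC table (FPKM) was not used here. The cells, gene lists and rules were chosen with earlier results of these data known. UMI counts were summed per library and class and fitted with edgeR 4.0.16 (R 4.3.3; TMM factors, filterByExpr, quasi-likelihood test, no block), and p-values were adjusted by Benjamini-Hochberg over all genes tested. The text names the 25 called genes with the largest rise (at least 50 CPM in both libraries of the chosen cells), the 15 with the largest fall (at least 50 CPM in both libraries of the compared class), all with a symbol and moved the same way in both libraries, and called or defining members of the lists. Both classes of a library came from 1 suspension, so the library pairs the sums, and a fit with this block was an alternative; its sums' deviations correlated by 0.0959 for all other cells and 0.0992 for collagen cells. Other alternatives were DESeq2 1.42.0, other cell rules, filters and doublet scores. On simulated counts over the 19983 genes of the comparison with all other cells, the adjusted p alone was used, with no fold limit. It was below 0.05 for 76 of 100 genes changed 2-fold, 81 of 100 changed 8-fold and 4 unchanged genes. Recovery under the 2-fold limit was not tested. Neighbours used scikit-learn 1.9.0, and Scrublet scores were made with scanpy 1.11.5. Intervals and floors cover counting error only. Depth is given in the report. Some listed genes are not reported here.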

Additional observations from a re-analysis of the deposited data

How the results depend on the processing

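Across the 14 alternatives of each comparison with all genes fitted, none of the 40 genes with the largest rise or fall changed direction. Of 560 values for those against all other cells, 559 kept their call, and *RBM47* lost it with at least 10 UMIs of the selecting pair (log2 -0.97, under the 2-fold limit). All 560 values against collagen cells kept theirs. These genes were picked as called genes with the largest differences, and most alternatives refit largely the same cells. Kept calls were thus nearly set by that choice and say little on other genes. The counts of genes moved more. Genes lower than in all other cells numbered 698, but 1228 when cells needed 1 in 1000 UMIs and at least 10 of the pair, 1212 without the highest Scrublet scores and 1412 without cells above the 95th percentile of UMIs. Genes lower than in collagen cells numbered 411, but 270.0 with DESeq2, 272 with at least 10 UMIs of the pair and 618 with at least 10 of each gene. Genes higher than in collagen cells numbered 409, but 619 with the rule of 1 in 1000 UMIs. The mean share of chosen cells was 1.78%, 3.17% with at least 10 UMIs, 1.09% with at least 50 and 1.02% with at least 10 of each gene. The cause of these shifts was not tested, beyond the wider or narrower choice of cells itself. Leaving out the chosen cells of 1 library in turn, with the lone sum assumed to vary like the others, gave 955 to 1037 genes higher and 586 to 671 lower against all other cells, and 394 to 437 higher and 409 to 432 lower against collagen cells. The share without 1 library was 1.14 to 2.43%. With the library as a block, the pairing gave 1030 higher and 706 lower, and 449 higher and 450.0 lower against collagen cells, and none of the 40 genes lost its call in either comparison. The edgeR adjusted p with the block was at most 1.08e-20 for each of these genes. Only the 2-fold limit could thus have ended a call, so this says little on the pairing. Among listed genes the block ended 5 of 158 calls against all other cells (*DLL4*, *LAMA1*, *PRRX1*, *SIX3* and *SMAD6*) and 1 of 92 against collagen cells (*GJA1*), and no listed gene was called in the opposite direction under any alternative. Signs did turn among lost calls: 22 of the 28 calls against all other cells lost with at least 10 UMIs of each gene kept their sign, as did 16 of 19 lost with at least 50 UMIs, and *COL1A1*, *COL3A1* and *PRRX1* turned in both. Without the chosen cells of library 1, 32 of those 158 calls and 10 of the 90 still tested of 92 were lost, and without library 2, 11 and 2. The fits without 1 library's chosen cells were chosen after seeing the data. With 2 libraries, a gene at few UMIs in the 2961964 UMIs of the chosen cells of library 2 is weakly measured.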

Other observations

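Other gene groups gave the following values in the *MYL7*/*MYL4* cells. Over all genes tested, 5.56% were called higher and 3.49% lower than in all other cells, and several counts below are near these shares. Of 16 endothelium and blood genes, *TEK*, *ERG*, *PLVAP* and *KLF1* were called higher than in all other cells by edgeR (from 2 to 8 genes under the alternatives, *PLVAP* not without library 1, and *TEK* not with at least 10 UMIs of each selecting gene, log2 -0.42), while the defining endothelial genes *PECAM1* and *CDH5* had 11 and 5 and 0 and 1 UMIs in libraries 1 and 2. In cells with none of the pair *PECAM1* was at 2.04 and 2.04 CPM and *CDH5* at 0.236 and 0.0991 CPM. The few UMIs of these 2 genes thus do not set the chosen cells apart. *KLF1*, an erythroid factor, stood at 4.64 and 4.39 CPM against 0.236 and 0.229 CPM and was also called higher than in collagen cells. *TEK*, the angiopoietin receptor, was lower than in collagen cells, at 20.2 and 19.9 CPM against 64.2 and 68.1 CPM. Of 9 epicardium genes, *TBX18* was called higher against both classes with 34 and 12 UMIs (the call against collagen cells was lost without library 1, with DESeq2, with at least 50 UMIs of the pair and with at least 10 of each gene, adjusted p from 0.0716 to 0.11), *ALDH1A2*, the retinoic acid enzyme, was called higher than in all other cells with 6 and 29 UMIs but not without library 2 (log2 0.34), and *BNC1* was lower than in both classes. *WT1*, a defining factor of the epicardium, had 2 and 0 UMIs. It was at 0.183 and 0.114 CPM in cells with none of the pair, so this does not set the chosen cells apart.

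Of 13 neural genes 1 was called higher (*NES*, nestin, at 57.5 and 69.2 CPM against 18.4 and 19.01 CPM) and 6 lower than in all other cells. Of 8 neural crest and glia genes *NGFR*, the low-affinity neurotrophin receptor, was called higher against both classes, with 143 and 53 UMIs, and 17.9 CPM in library 2 against 0.935 CPM in its other cells (log2 4.22 ± 0.19, edgeR adjusted p = 2.77e-08). *TFAP2B* was called lower than in all other cells, but not without the chosen cells of library 1. Of 9 surface ectoderm genes 4 were called lower than in all other cells, among them *EPCAM* at 101 and 111 CPM against 245 and 258 CPM. Of 10 amnion genes 2 were called higher and 3 lower than in all other cells, a count that ran from 0 to 6 lower under the alternatives.

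Among further signalling genes, *JAG1*, a Notch ligand, stood at 53.8 and 63.5 CPM, by log2 2.20 ± 0.10 above all other cells (edgeR adjusted p = 1.68e-08), and 4 of 15 Notch genes were called higher than in all other cells, of which *DLL4* had 12 UMIs in library 1 and 0 in library 2. Without the chosen cells of library 1 that count was 2, and with the library as a block *DLL4* was not called (edgeR adjusted p = 0.0587). Of 17 FGF genes 2 were called higher, *SPRY2* and *DUSP6*, feedback inhibitors of the pathway, and *FGF16* lower. Such small counts are to be read beside the 5.56% higher and 3.49% lower of all genes tested. *SPRY2* was not called without library 2 (log2 0.92), nor *FGF16* without library 1. *FGF8*, a ligand of the heart field, was called higher than in collagen cells only, at 22.8 and 16.5 CPM against 6.72 and 4.22 CPM, and whether these contrasts differ was not tested. Of 12 retinoic acid genes *ALDH1A2* was called higher and 3 lower than in all other cells. Of the lower ones *ALDH1A1* was under the 2-fold limit without the chosen cells of library 1 (log2 -0.97). *RARG* and *CYP26A1* were under it without those of library 2 (log2 -0.82 and -0.77). With at least 10 UMIs of each selecting gene 0 were called higher, and without cells above the 95th percentile of UMIs 6 were lower. *CRABP1* held 1078 UMIs in the chosen cells of library 1, of which 584 were in 1 cell.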
